A study of Mus musculus with 36 samples.

Results

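The genes described here are 33 genes of sterol and fatty acid synthesis, chosen by name: 18 enzymes of sterol synthesis, 5 genes that control or carry sterols, and 10 enzymes that make, lengthen or desaturate fatty acids. The choice was made with earlier results of these data known, so counts set beside all genes describe these genes and do not test them as a set. Each gene was read from the probe set with the highest mean among those annotated with its symbol alone. Of the 33 genes, 32 were measured, among 19938 genes in all, and Acat2 was not analysed here. Testing was limited to genes with 4 or more arrays above the table-wide median, a log2 level of 4.62. In all, 31 of the 33 genes met this rule, and Fads2 did not. Scd1 and Lss met it through the alveolar groups, with 0 and 2 of 12 precursor arrays over that median, and Acss2 through the precursors, with 3 of 24 alveolar arrays over it. Their place among the genes tested thus already implied a difference between groups.

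Mouse cells of 9 groups were profiled on 36 whole-transcript arrays, with 4 samples per group that the labels call biological replicates. Wild-type C57BL/6 donors with the congenic markers CD45.1+CD45.2+ gave macrophages of the yolk sac (stage E12.5), monocytes of the fetal liver (stage E15.5), monocytes of adult bone marrow (6 to 12 weeks) and adult alveolar macrophages washed from the airways (6 to 12 weeks). Another part of each population was placed through the nose into newborn Csf2rb-/- mice, and the descendants were sorted from the airways 6 weeks later. These are called YS-derived, FL-derived, BM-derived and AM-derived macrophages after their source. Alveolar macrophages sorted from wild-type C57BL/6 mice aged 6 weeks served as the control. Csf2rb encodes the beta chain of the receptor for GM-CSF, on which alveolar macrophages depend, so that the wild-type donor cells developed in a lung whose own cells lacked that receptor chain. Donor cells were told from those of the recipient by the CD45 markers, and the sorted cells were bulk samples, in which fewer cells of a type and less RNA per cell cannot be told apart.

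Cells make cholesterol from acetyl-CoA through mevalonate, isoprenoids, squalene and lanosterol. The transcription factor SREBP-2, product of Srebf2, drives the genes of this route, while SREBP-1, product of Srebf1, acts more on fatty acid synthesis. When sterols are scarce, the escort protein SCAP carries both factors out of the endoplasmic reticulum, and INSIG-1 holds the complex back when sterols are plentiful. Liver X receptors, which sense oxidised sterols, raise Srebf1, Scd1 and the cholesterol exporters. Alveolar macrophages clear surfactant, a film rich in phospholipid and cholesterol, and their handling of that lipid depends on GM-CSF.

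Sterol synthesis genes were higher in macrophages that had developed in the airways than in the yolk sac macrophages and the fetal liver and bone marrow monocytes from which they came. Of 17 sterol genes tested, 15 rose in YS-derived, 13 in FL-derived and 10 in BM-derived macrophages, and 0 fell. Over all genes tested, 19.6%, 20.4% and 20.3% rose and 23.2%, 18.0% and 16.1% fell in these comparisons. Lss met the filter through the alveolar groups, and without it 14, 12 and 9 of 16 sterol genes rose. Against 6-week alveolar macrophages, 0 of the 17 passed the test in any of the 4 derived groups, where at most 1.02% of all genes were higher and 0.702% lower, so that the count of 0 does not set these genes apart. Among the fatty acid genes, Scd1 had the widest range. It encodes a stearoyl-CoA desaturase, an enzyme that puts a double bond into saturated fatty acids. It was higher in all 4 derived groups than in 6-week alveolar macrophages, by 8.98-fold to 16.0-fold.

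Values are log2 levels as deposited, and differences are log2 values ± standard error. Genes with an adjusted p under 0.05 count as called, or as having risen or fallen. The test was limma's moderated test on all 36 arrays, with Benjamini-Hochberg adjustment over the 12244 genes tested. It measures the spread between these samples, and their number limits the precision. A fold is marked "at least" where the lower group mean was under the table median and was replaced by that median. The median level of an array was 4.54 to 4.73, and arrays of 1 group correlated at 0.963 to 0.982 across genes. All 10 alveolar macrophage markers, such as Siglecf, Car4 and Marco, were over the median of the table in each of the 6 alveolar groups, whereas 4 to 6 of the 10 were in the precursors. Fetal liver and bone marrow monocytes held 6 of 6 monocyte markers over that median, and yolk sac macrophages 8 of 8 tissue macrophage markers. Of 10 markers of lung epithelium, 5 to 7 were over the median in the alveolar groups and 4 in each precursor group. Sftpd, Lamp3 and Nkx2-1 lay under it in all 9 groups, and Sftpc lay over it in FL-derived, BM-derived and adult alveolar macrophages.

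**Figure D1:**
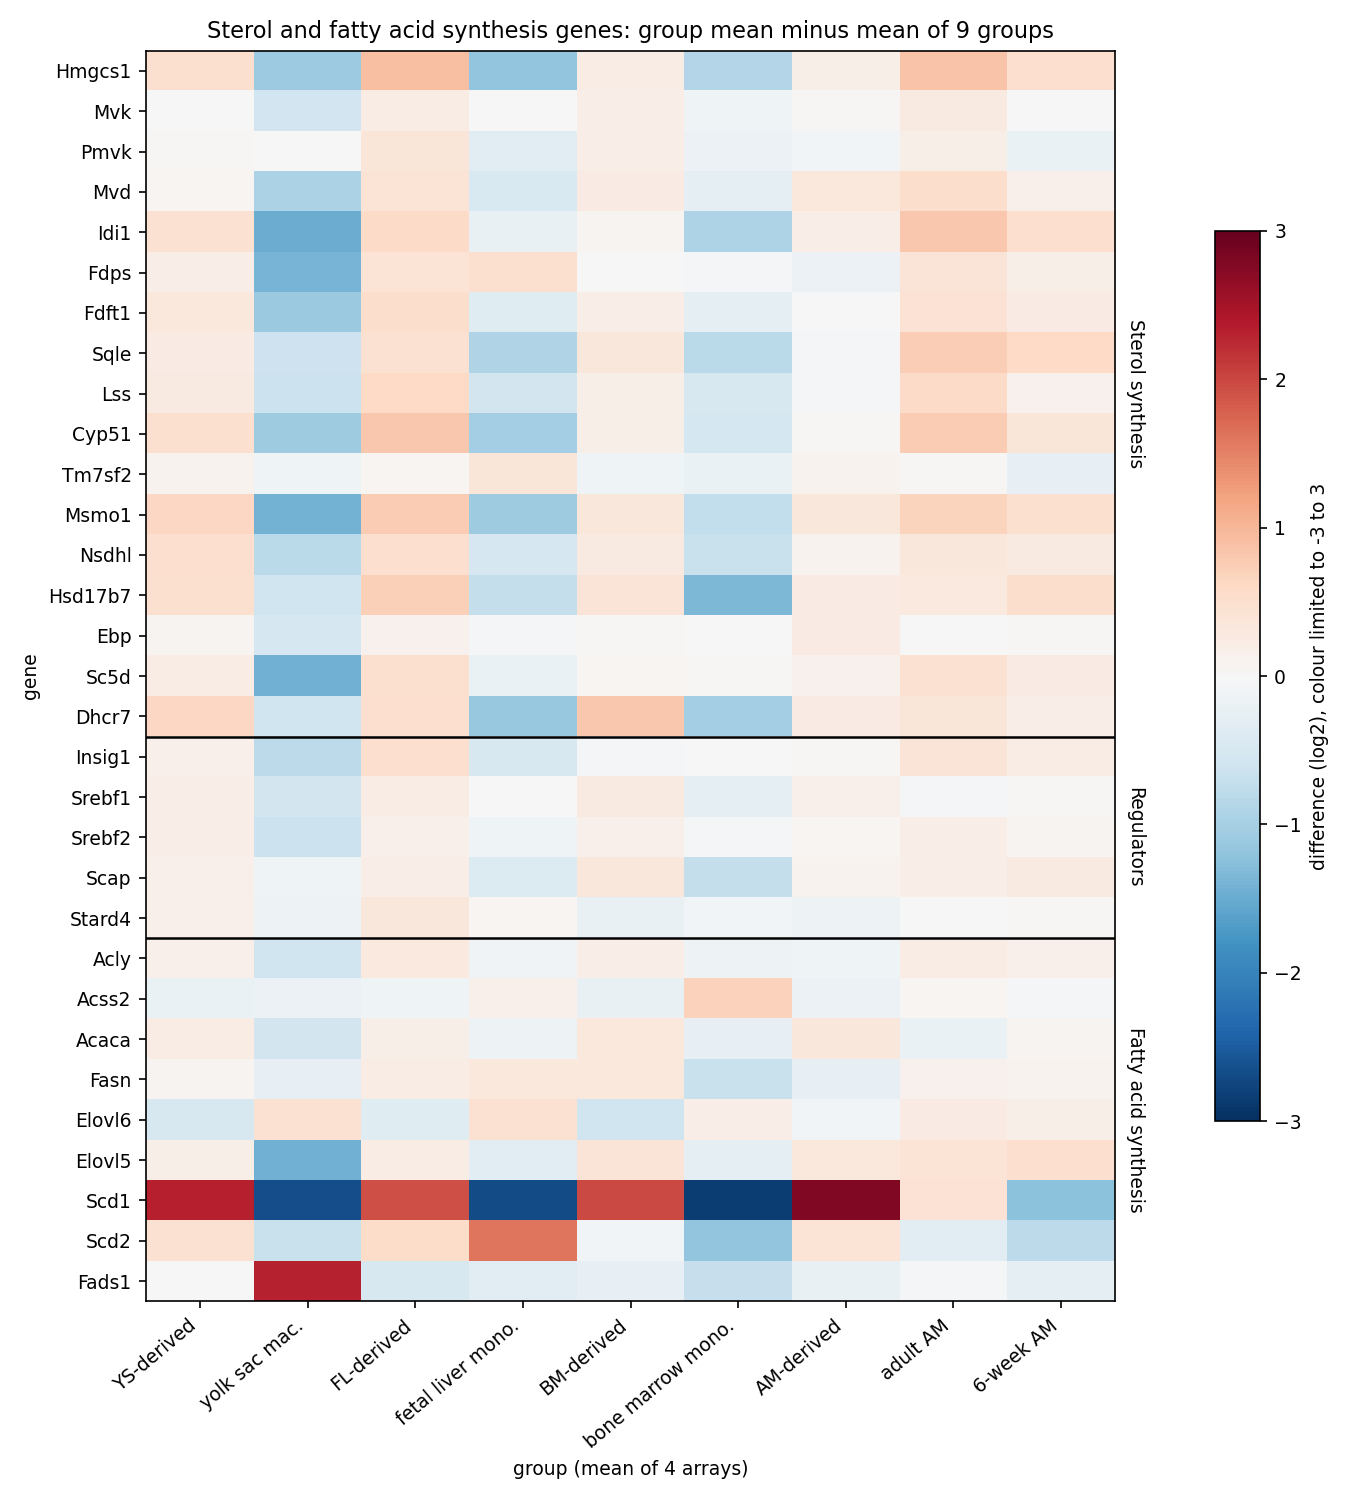
Group means of the 31 genes tested (log2, 4 arrays each), each gene centred on the mean of the 9 groups, with colours limited to a difference of 3 either way. Most sterol genes are blue in the 3 precursor columns and pale to red in the alveolar columns, Scd1 is red in the 4 derived groups and blue in the precursors and 6-week alveolar macrophages, and Fads1 is red in yolk sac macrophages.

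The comparison of derived cells with their precursors asked how these genes changed as a precursor became an alveolar macrophage. In YS-derived against yolk sac macrophages, 23 of 31 genes (74.2%) rose and 2 fell, where 19.6% of all genes tested rose and 23.2% fell. In FL-derived macrophages against fetal liver monocytes, 17 genes (54.8%) rose and 2 fell, beside 20.4% and 18.0% of all genes. BM-derived macrophages against bone marrow monocytes gave 17 genes (54.8%) that rose and 2 that fell, beside 20.3% and 16.1% of all genes. The share of genes that rose was thus above the background in each pair, and the share that fell, 6.45%, was below it. As the genes were chosen with earlier results of these data known, this describes them and is no test of the set. Without Scd1, Lss and Acss2, 21, 15 and 15 of 28 genes rose in the yolk sac, fetal liver and bone marrow pairs, 14, 12 and 9 of 16 sterol genes among them. The median difference over the 31 genes was 0.90, 0.61 and 0.55 for the yolk sac, fetal liver and bone marrow pairs, while over all genes tested it lay between -0.02 and 0.00. In all 3 pairs 12 of the 31 genes rose and 1, Elovl6, fell, and 26 rose in at least 1 pair. For 18 of 31 genes, 14 of them sterol genes, each of the 6 alveolar group means lay above each of the 3 precursor means, a pattern held by 16.5% of all genes tested. Both Scd1 and Lss are among these 18 genes and among the 12 that rose in all 3 pairs. Their place among the genes tested already implied a difference, and Lss is also counted in the 14.

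Other cell markers moved with these pairs. Erythroid markers summed to 7.24 to 7.32 (log2 of the summed linear level) in YS-derived macrophages, against 10.97 to 11.78 in yolk sac macrophages, with the globin genes Hbb-y and Hbb-bh1 over the median of the table in yolk sac macrophages alone. Early response genes summed to 11.62 to 11.80 and 14.41 to 14.59 in the same groups, with 10 of 10 over the median in both. Markers of hepatocytes and yolk sac endoderm summed to 7.86 to 8.05 in YS-derived and 8.75 to 9.40 in yolk sac macrophages, with Alb, Apob, Cubn and Rbp4 under the median in both. Cell cycle genes were lower in each derived group, at 11.96 to 12.49 over the 3 groups, against 12.63 to 13.78 over the 3 precursors. Neutrophil markers summed to 10.96 to 11.40 in YS-derived and 7.39 to 7.47 in yolk sac macrophages, to 10.69 to 12.13 in FL-derived macrophages and 13.82 to 14.18 in fetal liver monocytes, and to 10.09 to 11.65 in BM-derived macrophages and 12.81 to 14.23 in bone marrow monocytes. Of 8 tested, 7 fell in the fetal liver pair and 6 fell and 1 rose in the bone marrow pair, while 3 rose in the yolk sac pair. The summed level of lung epithelium markers was higher in the derived groups, at 8.80 to 9.50 over the 3 groups, against 7.66 to 7.92 over the 3 precursors. Of 7 tested, 2 rose and 1 fell in the yolk sac pair. In the fetal liver and bone marrow pairs 4 and 3 rose and 0 fell. Over all genes tested, 19.6%, 20.4% and 20.3% rose and 23.2%, 18.0% and 16.1% fell in the yolk sac, fetal liver and bone marrow pairs. The part of all these markers in the result was not tested.

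**Figure D2:**
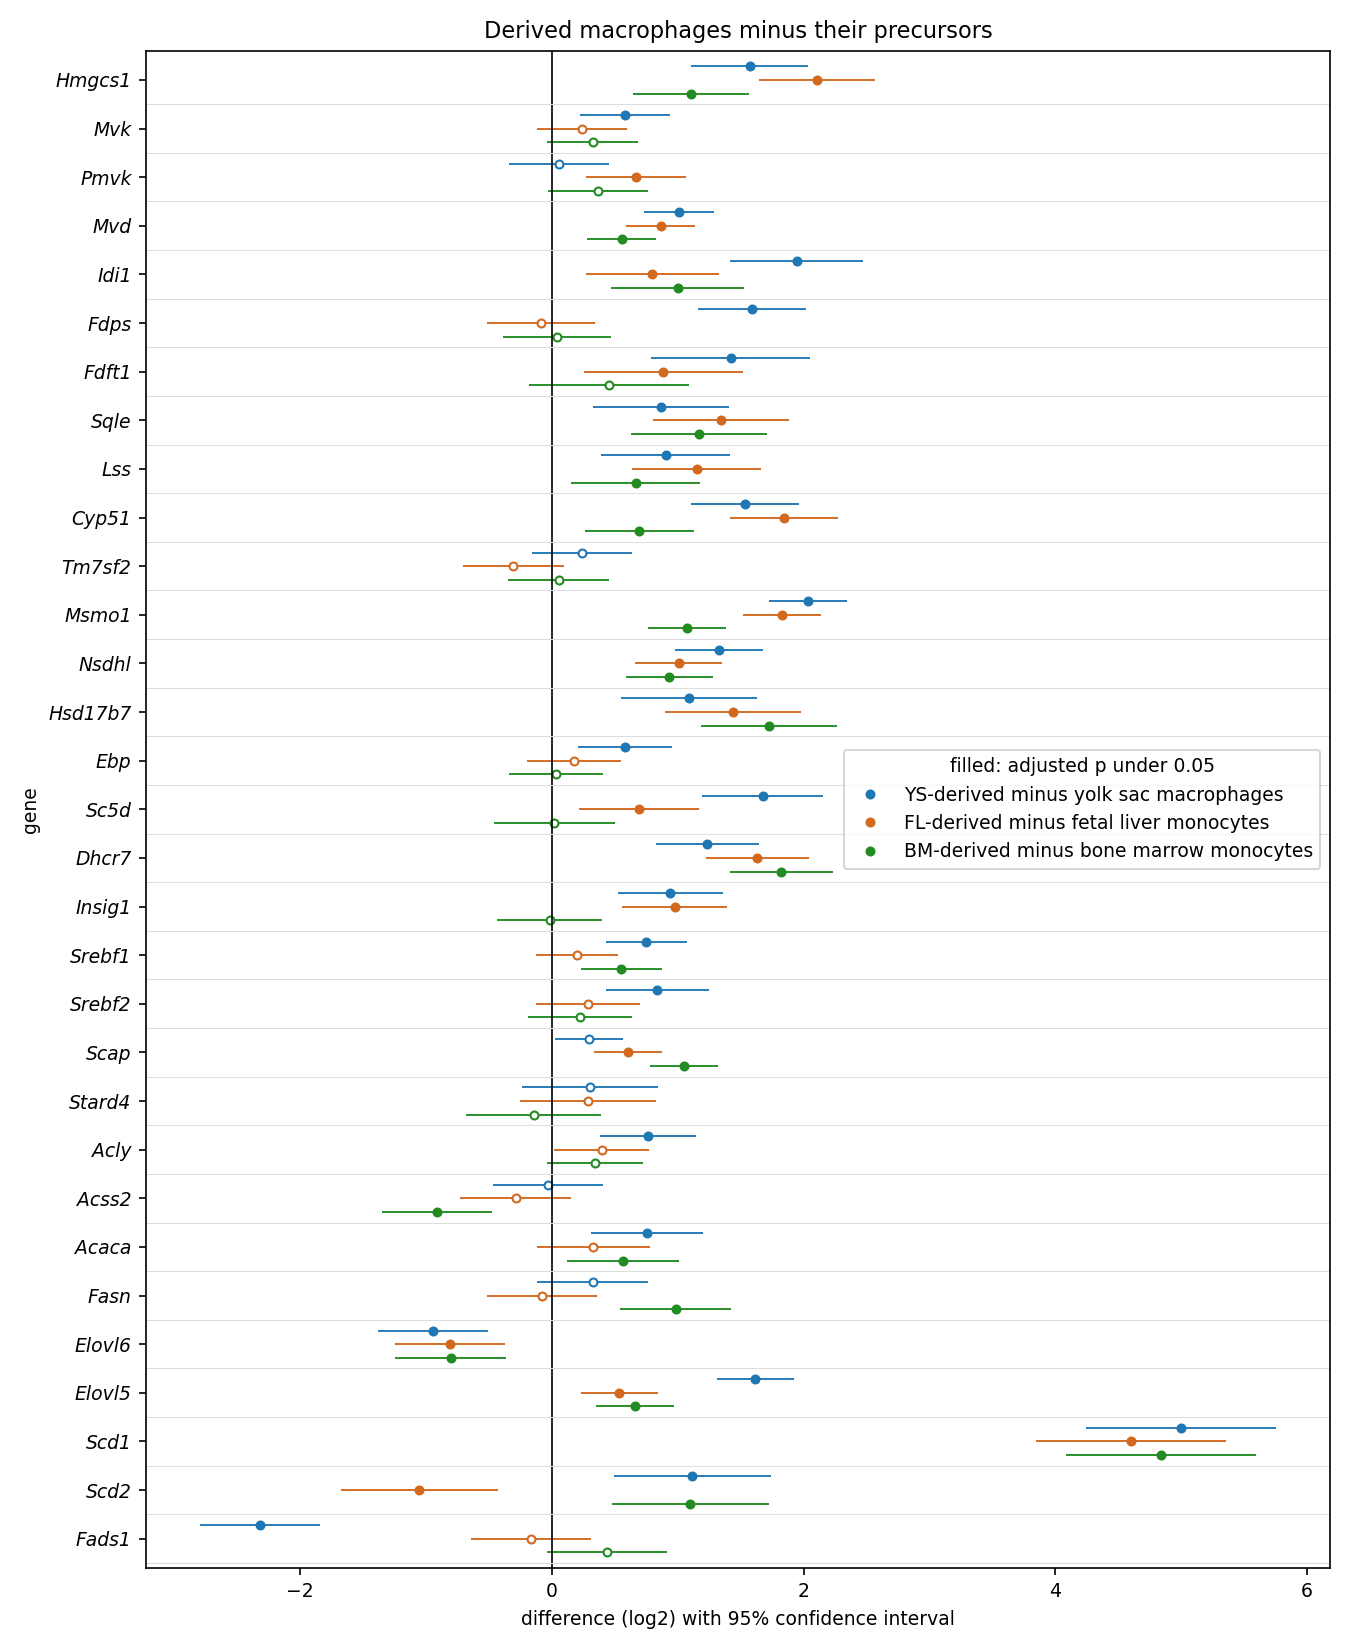
Difference (log2) with 95% confidence interval for the 31 genes tested, in the yolk sac, fetal liver and bone marrow pairs, derived minus precursor; filled points passed the test. Most sterol genes lie right of 0 in all 3 pairs, Scd1 lies between 4.60 and 5.00, Elovl6 lies left of 0, and Scd2 and Fads1 go different ways between pairs.

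The promoters of 4 sterol genes that rose in all 3 pairs are shown because they carry the letters searched for: 250 bases before to 50 bases after the annotated start, from RefSeq on mouse build GRCm38.p6. Hmgcs1 is at chr13:119690101-119690400 on the plus strand, Idi1 at chr13:8885356-8885655 on the plus strand, Cyp51 at chr5:4104648-4104947 on the minus strand and Msmo1 at chr8:64733529-64733828 on the minus strand. Capitals mark the sterol regulatory element letters TCACNCCAC and the NF-Y box CCAAT, which reads ATTGG where it lies on the other strand.
Hmgcs1: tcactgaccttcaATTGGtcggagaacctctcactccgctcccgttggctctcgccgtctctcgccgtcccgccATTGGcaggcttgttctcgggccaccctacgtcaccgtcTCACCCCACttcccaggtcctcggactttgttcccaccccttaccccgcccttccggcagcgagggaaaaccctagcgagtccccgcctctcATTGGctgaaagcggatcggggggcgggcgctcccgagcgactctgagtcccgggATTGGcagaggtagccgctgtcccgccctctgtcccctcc
Idi1: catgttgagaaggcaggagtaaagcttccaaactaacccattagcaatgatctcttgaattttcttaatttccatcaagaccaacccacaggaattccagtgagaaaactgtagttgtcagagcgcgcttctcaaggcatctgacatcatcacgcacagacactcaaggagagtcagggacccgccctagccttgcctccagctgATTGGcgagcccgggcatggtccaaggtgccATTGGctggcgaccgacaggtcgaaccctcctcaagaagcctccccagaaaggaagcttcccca
Cyp51: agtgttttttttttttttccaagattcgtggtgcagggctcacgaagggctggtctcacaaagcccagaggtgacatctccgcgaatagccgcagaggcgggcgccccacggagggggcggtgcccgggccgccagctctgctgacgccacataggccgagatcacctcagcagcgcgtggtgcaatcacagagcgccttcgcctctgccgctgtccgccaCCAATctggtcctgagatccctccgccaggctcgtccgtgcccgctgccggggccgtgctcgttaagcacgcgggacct
Msmo1: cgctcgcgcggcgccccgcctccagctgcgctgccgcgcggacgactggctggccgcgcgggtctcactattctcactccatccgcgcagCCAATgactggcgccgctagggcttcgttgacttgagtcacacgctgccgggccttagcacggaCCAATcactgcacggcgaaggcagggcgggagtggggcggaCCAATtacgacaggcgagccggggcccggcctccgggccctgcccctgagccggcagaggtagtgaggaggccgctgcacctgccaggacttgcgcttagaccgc
Hmgcs1 held the sterol element at base -137 from its start and 4 NF-Y boxes. Msmo1 held 3 NF-Y boxes, Idi1 held 2 and Cyp51 held 1. Other sterol genes that rose in all 3 pairs held NF-Y boxes too, so that the 4 shown are examples. Nsdhl held 4, Hsd17b7 held 3, Mvd held 2 and Lss held 1, and Dhcr7 held 2 in a promoter and 0 in its others. The table of promoters had 32 promoters of 26 of the 33 genes, and Sqle, Fdps, Fdft1, Stard4, Scd1, Scd2 and Fads1 are not shown. On either strand, 22 of the 32 promoters (68.8%) held CCAAT, against 37.4% of all 32851 promoters. The GC box GGGCGG was in 24 (75.0%) against 35.7%, and the E-box CACGTG in 7 (21.9%) against 7.15%. TCACNCCAC was in 1 (3.12%) against 1.24%, and a longer form of this element, with its open base fixed as C, in 0 against 0.0913%. Some genes have several promoters in this count, some of them overlapping, and a match is a description of letters, not a site of binding.

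Hmgcs1, which makes HMG-CoA at the head of the mevalonate route, was at 8.63, 8.25, 8.20 and 8.55 in YS-derived macrophages, against 7.01, 6.89, 6.45 and 6.98 in yolk sac macrophages. FL-derived macrophages held Hmgcs1 at 8.41, 8.61, 8.49 and 9.88, against 6.73, 6.80, 6.71 and 6.73 in fetal liver monocytes. BM-derived macrophages had Hmgcs1 at 8.31, 8.43, 7.997 and 7.93, against 6.90, 7.59, 6.78 and 6.98 in bone marrow monocytes. No derived array overlapped its precursors, and replicate 4 of the FL-derived group stood highest. AM-derived macrophages carried Hmgcs1 at 7.74, 8.39, 8.58 and 7.78, beside 8.99, 8.91, 8.82 and 8.42 in adult and 8.51, 8.48, 8.48 and 8.33 in 6-week alveolar macrophages. All 24 alveolar arrays thus lay above all 12 precursor arrays. The gene rose by 1.57 ± 0.23 in the yolk sac pair, 2.11 ± 0.23 in the fetal liver pair (4.30-fold, adjusted p = 2.17e-09) and 1.11 ± 0.23 in the bone marrow pair.

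Mvk, Pmvk and Mvd, the next 3 enzymes, phosphorylate mevalonate and then decarboxylate it. Mvd rose in each pair, by 1.01 ± 0.13, 0.86 ± 0.13 (adjusted p = 2.73e-06) and 0.55 ± 0.13 in the yolk sac, fetal liver and bone marrow pairs. Mvk rose in the yolk sac pair alone among the calls, by 0.58 ± 0.18, and Pmvk in the fetal liver pair, by 0.67 ± 0.20. The other differences of these 2 genes were between 0.06 and 0.37 and did not pass the test.

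Idi1, which converts isopentenyl to dimethylallyl pyrophosphate, was at 8.17, 7.85, 7.32 and 7.64 in YS-derived and 6.07, 5.37, 5.81 and 5.95 in yolk sac macrophages. FL-derived macrophages held Idi1 at 7.98, 7.28, 7.73 and 8.54, against 6.83, 7.20, 7.20 and 7.13 in fetal liver monocytes. BM-derived macrophages had Idi1 at 8.04, 7.37, 7.06 and 7.05, against 6.30, 6.71, 6.06 and 6.47 in bone marrow monocytes. The groups did not overlap in any pair, and the gap was narrowest for the fetal liver. AM-derived macrophages carried Idi1 at 7.13, 7.77, 8.21 and 6.87, beside 7.80, 7.98, 8.07 and 8.54 in adult and 7.47, 8.08, 7.76 and 7.96 in 6-week alveolar macrophages. The rise was 1.95 ± 0.26 in the yolk sac pair, 0.80 ± 0.26 in the fetal liver pair and 1.00 ± 0.26 in the bone marrow pair. A second probe set of Idi1, left out by the rule, had the same order of precursors below the derived groups.

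Fdps builds farnesyl pyrophosphate, and Fdft1 joins a pair of these into squalene. Fdps averaged 8.05 ± 0.21 in YS-derived against 6.46 ± 0.40 in yolk sac macrophages (SD, n = 4 each), and rose by 1.59 ± 0.21. In the fetal liver and bone marrow pairs its differences were -0.09 ± 0.21 and 0.04 ± 0.21, neither past the test. Fdft1 rose by 1.42 ± 0.31 and 0.89 ± 0.31 in the yolk sac and fetal liver pairs. Its difference of 0.46 ± 0.31 in the bone marrow pair did not pass, with an SD of 0.88 among BM-derived arrays.

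Sqle, squalene epoxidase, adds the first oxygen and is a step that limits the flow to sterols. Sqle was at 6.91, 7.01, 6.40 and 7.29 in YS-derived macrophages and at 6.33, 5.97, 6.27 and 5.57 in yolk sac macrophages. FL-derived macrophages held Sqle at 7.06, 6.45, 6.97 and 7.94, against 5.90, 5.81, 5.42 and 5.91 in fetal liver monocytes. BM-derived macrophages had Sqle at 7.44, 7.11, 6.72 and 6.75, against 5.65, 6.08, 6.04 and 5.57 in bone marrow monocytes. Derived and precursor arrays were separate in each pair. AM-derived macrophages carried Sqle at 6.64, 7.14, 6.87 and 5.73, beside 7.67, 7.29, 7.64 and 6.97 in adult and 7.00, 7.63, 7.03 and 7.34 in 6-week alveolar macrophages. Replicate 4 of the AM-derived group fell within the range of the precursors. The rise was 0.87 ± 0.27, 1.34 ± 0.27 and 1.17 ± 0.27 in the yolk sac, fetal liver and bone marrow pairs.

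Lss closes squalene epoxide into lanosterol, the first sterol. Its means were 5.22 ± 0.24, 5.55 ± 0.72 and 5.14 ± 0.51 in YS-, FL- and BM-derived macrophages (SD, n = 4 each). In yolk sac macrophages and in fetal liver and bone marrow monocytes they were 4.31 ± 0.22, 4.40 ± 0.31 and 4.47 ± 0.27, all under the median of the table. It was called in each pair, where its place among the genes tested already implied a difference, with folds of at least 1.51-fold, at least 1.90-fold and at least 1.43-fold in that order.

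Cyp51 takes the first methyl group off lanosterol and is the target of azole drugs in fungi. Cyp51 was at 8.14, 7.77, 7.66 and 8.21 in YS-derived macrophages, against 6.50, 6.62, 5.92 and 6.58 in yolk sac macrophages. FL-derived macrophages held Cyp51 at 8.22, 7.94, 7.96 and 8.97, against 6.41, 6.58, 6.39 and 6.34 in fetal liver monocytes. BM-derived macrophages had Cyp51 at 7.90, 7.94, 7.47 and 7.23, against 6.74, 7.09, 7.19 and 6.73 in bone marrow monocytes. The arrays did not overlap, though the bone marrow pair was close. AM-derived macrophages carried Cyp51 at 7.46, 7.98, 7.67 and 6.85, beside 8.29, 8.23, 8.01 and 8.31 in adult and 7.83, 8.01, 7.61 and 7.88 in 6-week alveolar macrophages. Its rise was 1.54 ± 0.21 in the yolk sac pair, 1.84 ± 0.21 in the fetal liver pair (3.58-fold, adjusted p = 7.54e-09) and 0.70 ± 0.21 in the bone marrow pair.

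Msmo1, the C4-methylsterol oxidase of the next step, was the sterol gene with the lowest adjusted p in the yolk sac and fetal liver pairs. Msmo1 was at 9.49, 9.13, 9.26 and 9.43 in YS-derived macrophages, against 7.20, 7.31, 7.38 and 7.28 in yolk sac macrophages. FL-derived macrophages held Msmo1 at 9.53, 9.19, 9.13 and 10.01, against 7.28, 7.83, 7.72 and 7.72 in fetal liver monocytes. BM-derived macrophages had Msmo1 at 9.30, 8.98, 9.03 and 8.82, against 7.83, 8.27, 7.88 and 7.85 in bone marrow monocytes. Every derived array was above every precursor array. AM-derived macrophages carried Msmo1 at 8.82, 9.18, 9.28 and 8.87, beside 9.23, 9.30, 9.45 and 9.54 in adult and 9.16, 9.20, 9.26 and 9.11 in 6-week alveolar macrophages. It rose by 2.03 ± 0.15 (4.10-fold, adjusted p = 2.73e-13) in the yolk sac pair, 1.83 ± 0.15 (3.55-fold, adjusted p = 5.59e-12) in the fetal liver pair, and 1.08 ± 0.15 (2.11-fold, adjusted p = 5.42e-07) in the bone marrow pair.

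Nsdhl and Hsd17b7 complete the removal of the methyl groups at carbon C4. Nsdhl rose by 1.33 ± 0.17 (adjusted p = 6.67e-08), 1.01 ± 0.17 and 0.93 ± 0.17 (adjusted p = 3.61e-05) in the yolk sac, fetal liver and bone marrow pairs. Hsd17b7 rose by 1.09 ± 0.27, 1.44 ± 0.27 and 1.73 ± 0.27 (adjusted p = 2.35e-06) in the same pairs. Tm7sf2, a sterol reductase whose work Lbr can share, was the 1 sterol gene called in no pair, with differences of 0.24 ± 0.20, -0.31 ± 0.20 and 0.05 ± 0.20.

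Ebp, Sc5d and Dhcr7 shift and set the double bonds of the ring. Ebp rose in the yolk sac pair alone among the calls, by 0.58 ± 0.18. Sc5d rose by 1.67 ± 0.23 and 0.69 ± 0.23 in the yolk sac and fetal liver pairs, and its difference of 0.02 ± 0.23 in the bone marrow pair did not pass.

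Dhcr7 makes cholesterol from 7-dehydrocholesterol, the parent of vitamin D. Dhcr7 was at 7.48, 7.61, 7.57 and 7.86 in YS-derived macrophages, against 6.12, 6.32, 6.47 and 6.67 in yolk sac macrophages. FL-derived macrophages held Dhcr7 at 7.41, 7.85, 7.31 and 7.47, against 6.35, 5.56, 5.52 and 6.07 in fetal liver monocytes. BM-derived macrophages had Dhcr7 at 8.01, 7.72, 7.66 and 7.88, against 5.73, 6.76, 5.80 and 5.68 in bone marrow monocytes. The groups did not overlap in any pair, and replicate 2 of the bone marrow monocytes stood above the other 3. AM-derived macrophages carried Dhcr7 at 7.41, 7.42, 7.47 and 6.68, beside 7.34, 7.48, 7.44 and 7.18 in adult and 7.10, 7.39, 7.04 and 7.31 in 6-week alveolar macrophages. Dhcr7 rose by 1.23 ± 0.20 in the yolk sac pair, 1.63 ± 0.20 in the fetal liver pair (3.10-fold, adjusted p = 3.21e-08) and 1.82 ± 0.20 in the bone marrow pair (3.54-fold, adjusted p = 3.7e-09).

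**Figure D3:**
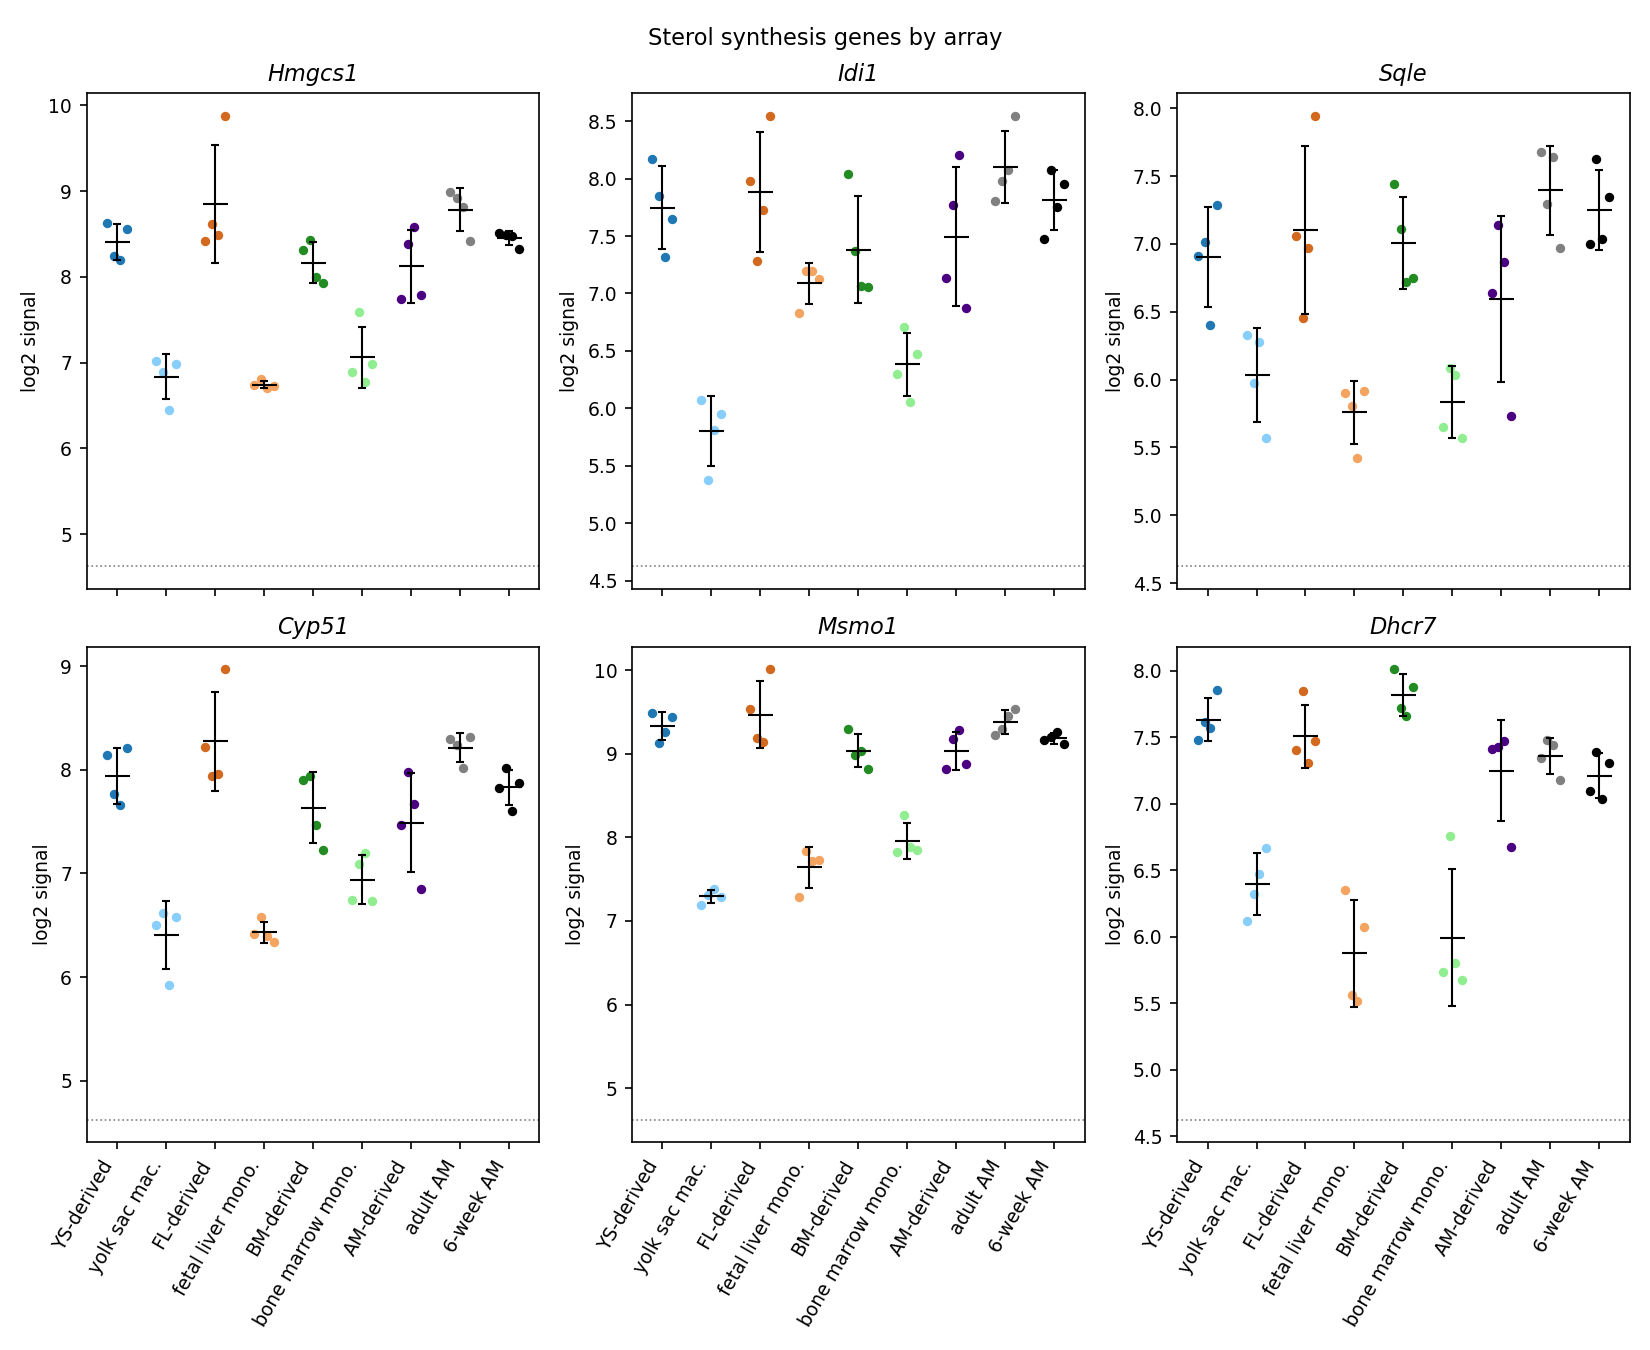
Log2 level of 6 sterol synthesis genes in each of the 36 arrays (points), with the mean and SD of each group (n = 4); the dotted line, where within the axis, is the median of the table, and vertical axes start above 0. Derived macrophages sit above their precursors in each panel, and replicate 4 of the FL-derived group reaches 9.88 for Hmgcs1.

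The sterol genes moved together within some groups as well. The mean level of the 17 genes was 7.54, 7.44, 7.38 and 8.27 in the FL-derived arrays, 7.17, 7.50, 7.46 and 6.93 in the AM-derived arrays, and 7.58 to 7.66 in adult alveolar macrophages. Replicate 4 of the FL-derived group was the highest of its group in 15 of the 17 genes, 0.82 above the other arrays on average. It also held the highest S100a8 of its group (12.04 against 9.91 to 10.86), a marker of neutrophils and of monocytes. Its Mmp8, a marker of neutrophils, was the lowest of the group (6.20 against 8.55 to 9.40). These markers went opposite ways, the others are not given for this array, and their part in the result was not tested. Without replicate 4 of the FL-derived group, 16 of 31 genes were called in the fetal liver pair, against 19 with it. Replicate 4 of the AM-derived group was the lowest of its group in 9 of the 17 genes, by 0.45 on average.

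Among the genes that control the route, Insig1, itself raised by SREBP, was at 8.62, 8.86, 8.78 and 8.57 in YS-derived macrophages, against 7.81, 7.51, 7.89 and 7.86 in yolk sac macrophages. FL-derived macrophages held Insig1 at 8.82, 8.76, 8.71 and 9.88, against 7.94, 8.28, 7.97 and 8.08 in fetal liver monocytes. BM-derived macrophages had Insig1 at 8.68, 8.41, 8.33 and 8.65, against 8.18, 9.08, 8.37 and 8.48 in bone marrow monocytes. The yolk sac and fetal liver pairs were separate, and the bone marrow pair overlapped. AM-derived macrophages carried Insig1 at 8.38, 8.52, 9.18 and 8.22, beside 9.02, 8.88, 8.83 and 9.03 in adult and 8.74, 8.54, 9.11 and 8.64 in 6-week alveolar macrophages. Insig1 rose by 0.94 ± 0.20 and 0.98 ± 0.20 in the yolk sac and fetal liver pairs, and its difference was -0.02 ± 0.20 in the bone marrow pair.

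Srebf1 was at 6.66, 6.82, 6.56 and 6.92 in YS-derived macrophages, against 6.18, 5.99, 5.98 and 5.81 in yolk sac macrophages. FL-derived macrophages held Srebf1 at 6.61, 6.77, 6.73 and 6.94, against 6.82, 6.25, 6.64 and 6.55 in fetal liver monocytes. BM-derived macrophages had Srebf1 at 6.83, 6.74, 7.19 and 6.50, against 6.00, 6.33, 6.35 and 6.37 in bone marrow monocytes. Here the fetal liver pair overlapped and the other pairs did not. AM-derived macrophages carried Srebf1 at 7.02, 6.60, 6.47 and 6.64, beside 6.55, 6.68, 6.68 and 5.98 in adult and 6.31, 6.88, 6.55 and 6.55 in 6-week alveolar macrophages. Srebf1 rose by 0.75 ± 0.16 and 0.55 ± 0.16 in the yolk sac and bone marrow pairs, while its difference of 0.20 ± 0.16 in the fetal liver pair did not pass.

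Srebf2 was at 7.39, 7.44, 7.16 and 7.90 in YS-derived macrophages, against 6.95, 6.25, 6.47 and 6.86 in yolk sac macrophages. FL-derived macrophages held Srebf2 at 7.32, 7.30, 7.37 and 7.73, against 7.26, 7.30, 7.00 and 7.01 in fetal liver monocytes. BM-derived macrophages had Srebf2 at 7.59, 7.81, 7.36 and 6.98, against 7.10, 7.69, 7.24 and 6.83 in bone marrow monocytes. Only the yolk sac pair was clearly apart. AM-derived macrophages carried Srebf2 at 7.54, 7.61, 7.38 and 6.80, beside 7.81, 7.65, 7.51 and 6.99 in adult and 7.40, 7.27, 7.43 and 7.40 in 6-week alveolar macrophages. The gene rose by 0.84 ± 0.20 in the yolk sac pair, and its differences of 0.29 ± 0.20 and 0.22 ± 0.20 in the fetal liver and bone marrow pairs did not pass the test.

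Scap, the escort protein, rose by 0.61 ± 0.13 in the fetal liver pair and by 1.05 ± 0.13 in the bone marrow pair (2.07-fold, adjusted p = 6.44e-08). In the yolk sac pair its difference was 0.30 ± 0.13, which did not pass. Stard4, which carries cholesterol between membranes, passed in no pair, with differences of 0.30 ± 0.26, 0.29 ± 0.26 and -0.14 ± 0.26.

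The fatty acid genes moved less uniformly. Of 9 tested, 5 rose and 2 fell in the yolk sac pair, 2 rose and 2 fell in the fetal liver pair, and 5 rose and 2 fell in the bone marrow pair. In the fetal liver pair these shares, 22.2% each, were near the 20.4% of all genes that rose and the 18.0% that fell. In the yolk sac pair 55.6% rose and 22.2% fell, beside 19.6% and 23.2% of all genes, so the share that fell was near the background. The bone marrow pair had the same shares, beside 20.3% and 16.1% of all genes. Acly cuts citrate into acetyl-CoA in the cytosol, and Acss2 makes acetyl-CoA from acetate. Acly rose by 0.77 ± 0.19 in the yolk sac pair, and its differences of 0.40 ± 0.19 and 0.34 ± 0.19 in the other pairs did not pass. Acss2 averaged 4.26 ± 0.26 in BM-derived macrophages, under the median of the table, against 5.17 ± 0.61 in bone marrow monocytes, a difference of -0.91 ± 0.22 that passed the test. Its differences of -0.03 ± 0.22 and -0.29 ± 0.22 in the other pairs did not.

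Acaca, acetyl-CoA carboxylase, makes the malonyl-CoA that fatty acid synthase uses. Acaca was at 6.07, 6.03, 5.93 and 6.52 in YS-derived macrophages, against 5.79, 5.10, 5.28 and 5.35 in yolk sac macrophages. FL-derived macrophages held Acaca at 5.81, 6.03, 6.17 and 6.44, against 6.17, 5.76, 5.52 and 5.68 in fetal liver monocytes. BM-derived macrophages had Acaca at 6.19, 6.26, 6.52 and 6.05, against 5.66, 6.22, 5.22 and 5.64 in bone marrow monocytes. The yolk sac pair was separate and the other pairs overlapped. AM-derived macrophages carried Acaca at 6.17, 6.28, 6.45 and 6.12, beside 6.06, 6.07, 5.86 and 4.88 in adult and 5.83, 5.80, 5.95 and 6.46 in 6-week alveolar macrophages. Acaca rose by 0.76 ± 0.22 and 0.57 ± 0.22 in the yolk sac and bone marrow pairs and differed by 0.33 ± 0.22 in the fetal liver pair, short of the test.

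Fasn, fatty acid synthase, was at 6.13, 6.19, 5.84 and 6.62 in YS-derived macrophages, against 5.49, 6.06, 5.78 and 6.14 in yolk sac macrophages. FL-derived macrophages held Fasn at 6.29, 6.04, 6.24 and 6.80, against 6.82, 6.12, 6.04 and 6.69 in fetal liver monocytes. BM-derived macrophages had Fasn at 6.54, 6.59, 6.41 and 6.12, against 5.11, 5.93, 5.44 and 5.26 in bone marrow monocytes. Only the bone marrow pair did not overlap. AM-derived macrophages carried Fasn at 6.15, 6.06, 6.10 and 5.17, beside 6.35, 6.41, 6.26 and 5.93 in adult and 5.97, 6.41, 6.22 and 6.26 in 6-week alveolar macrophages. Fasn rose by 0.98 ± 0.22 in the bone marrow pair, and its differences of 0.33 ± 0.22 and -0.08 ± 0.22 in the yolk sac and fetal liver pairs did not pass.

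Both elongases moved, in opposite directions. Elovl5 lengthens polyunsaturated fatty acids and rose by 1.62 ± 0.15 (3.07-fold, adjusted p = 6.63e-11), 0.54 ± 0.15 and 0.66 ± 0.15 in the yolk sac, fetal liver and bone marrow pairs. Elovl6 lengthens palmitate to stearate, the main substrate of Scd1. Elovl6 was at 4.35, 4.43, 4.92 and 4.82 in YS-derived macrophages, against 5.58, 5.56, 5.49 and 5.67 in yolk sac macrophages. FL-derived macrophages held Elovl6 at 4.85, 4.76, 4.97 and 4.45, against 6.05, 6.14, 5.23 and 4.84 in fetal liver monocytes. BM-derived macrophages had Elovl6 at 4.32, 4.23, 4.96 and 4.60, against 5.32, 5.66, 5.39 and 4.96 in bone marrow monocytes. The yolk sac pair was separate, the fetal liver pair overlapped and the bone marrow pair met at 4.96. AM-derived macrophages carried Elovl6 at 5.09, 4.79, 5.06 and 5.21, beside 5.16, 5.31, 5.34 and 5.62 in adult and 5.73, 5.38, 4.91 and 5.17 in 6-week alveolar macrophages. Its differences were -0.94 ± 0.22, -0.81 ± 0.22 and -0.80 ± 0.22 in the yolk sac, fetal liver and bone marrow pairs, each of them called.

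Scd1 had the widest range of group means of the 33 genes, 5.62. Scd1 was at 8.61, 8.73, 9.19 and 9.04 in YS-derived macrophages, against 4.10, 4.05, 3.97 and 3.46 in yolk sac macrophages. FL-derived macrophages held Scd1 at 8.25, 8.93, 7.87 and 8.93, against 3.58, 3.98, 3.96 and 4.05 in fetal liver monocytes. BM-derived macrophages had Scd1 at 7.89, 7.26, 10.01 and 9.04, against 4.18, 3.61, 3.26 and 3.78 in bone marrow monocytes. All 12 precursor arrays lay under the median of the table, and the BM-derived arrays varied most. AM-derived macrophages carried Scd1 at 10.00, 9.20, 8.89 and 9.24, beside 6.92, 7.44, 6.89 and 6.73 in adult and 5.05, 6.22, 4.68 and 5.36 in 6-week alveolar macrophages. The 4 AM-derived arrays thus lay above all arrays of both untransferred groups, which did not overlap each other either. Scd1 rose by 5.00 ± 0.37 (at least 19.3-fold, adjusted p = 2.12e-13) in the yolk sac pair, 4.60 ± 0.37 (at least 14.6-fold, adjusted p = 2.31e-12) in the fetal liver pair and 4.84 ± 0.37 (at least 15.2-fold, adjusted p = 6.6e-13) in the bone marrow pair.

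Scd2, a second stearoyl-CoA desaturase and a neighbour of Scd1 on chromosome 19, had another order. Scd2 was at 7.69, 7.48, 7.90 and 8.17 in YS-derived macrophages, against 6.84, 6.28, 6.98 and 6.67 in yolk sac macrophages. FL-derived macrophages held Scd2 at 7.64, 8.15, 7.23 and 8.65, against 9.65, 8.80, 8.61 and 8.81 in fetal liver monocytes. BM-derived macrophages had Scd2 at 7.20, 6.72, 8.39 and 6.83, against 5.84, 6.23, 6.52 and 6.14 in bone marrow monocytes. Its highest group was thus the fetal liver monocytes, in which the Scd1 probe set stayed under the median of the table. AM-derived macrophages carried Scd2 at 8.20, 7.96, 7.44 and 7.50, beside 7.13, 7.68, 6.58 and 6.71 in adult and 6.34, 6.69, 6.26 and 6.98 in 6-week alveolar macrophages. It rose by 1.12 ± 0.31 and 1.10 ± 0.31 in the yolk sac and bone marrow pairs and changed by -1.05 ± 0.31 in the fetal liver pair, where it was lower in the derived cells. Scd1 and Scd2 are close in sequence, and probe sets of such genes can share signal.

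Fads1 puts the last double bond into arachidonic acid. Fads1 was at 4.99, 5.47, 4.78 and 5.62 in YS-derived macrophages, against 7.61, 7.47, 7.37 and 7.69 in yolk sac macrophages. FL-derived macrophages held Fads1 at 4.31, 5.15, 4.54 and 4.92, against 5.17, 4.72, 4.98 and 4.71 in fetal liver monocytes. Yolk sac macrophages stood apart from all other groups. BM-derived macrophages had Fads1 at 5.15, 4.91, 5.57 and 4.21, against 4.44, 4.71, 4.53 and 4.41 in bone marrow monocytes. AM-derived macrophages carried Fads1 at 5.02, 4.80, 4.88 and 5.29, beside 5.53, 5.34, 4.65 and 5.17 in adult and 4.35, 5.41, 4.99 and 4.94 in 6-week alveolar macrophages. The difference in the yolk sac pair was -2.32 ± 0.23 (4.99-fold lower, adjusted p = 3.97e-10), and those of -0.16 ± 0.23 and 0.44 ± 0.23 in the other pairs did not pass.

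Fads2, the desaturase that acts before Elovl5 in the same route, exceeded the median of the table in 3 arrays and was not tested. Fads2 was at 4.21, 3.94, 3.82 and 4.24 in YS-derived macrophages, against 4.85, 4.13, 4.24 and 4.88 in yolk sac macrophages. FL-derived macrophages held Fads2 at 4.07, 4.08, 3.82 and 4.56, against 5.23, 4.23, 4.55 and 4.56 in fetal liver monocytes. The arrays over the median were 2 of yolk sac macrophages and 1 of fetal liver monocytes. BM-derived macrophages had Fads2 at 3.91, 4.28, 3.90 and 3.98, against 4.27, 4.15, 4.15 and 4.17 in bone marrow monocytes. AM-derived macrophages carried Fads2 at 3.77, 4.03, 4.03 and 4.05, beside 4.46, 4.47, 4.41 and 3.94 in adult and 4.37, 4.01, 4.21 and 4.25 in 6-week alveolar macrophages.

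**Figure D4:**
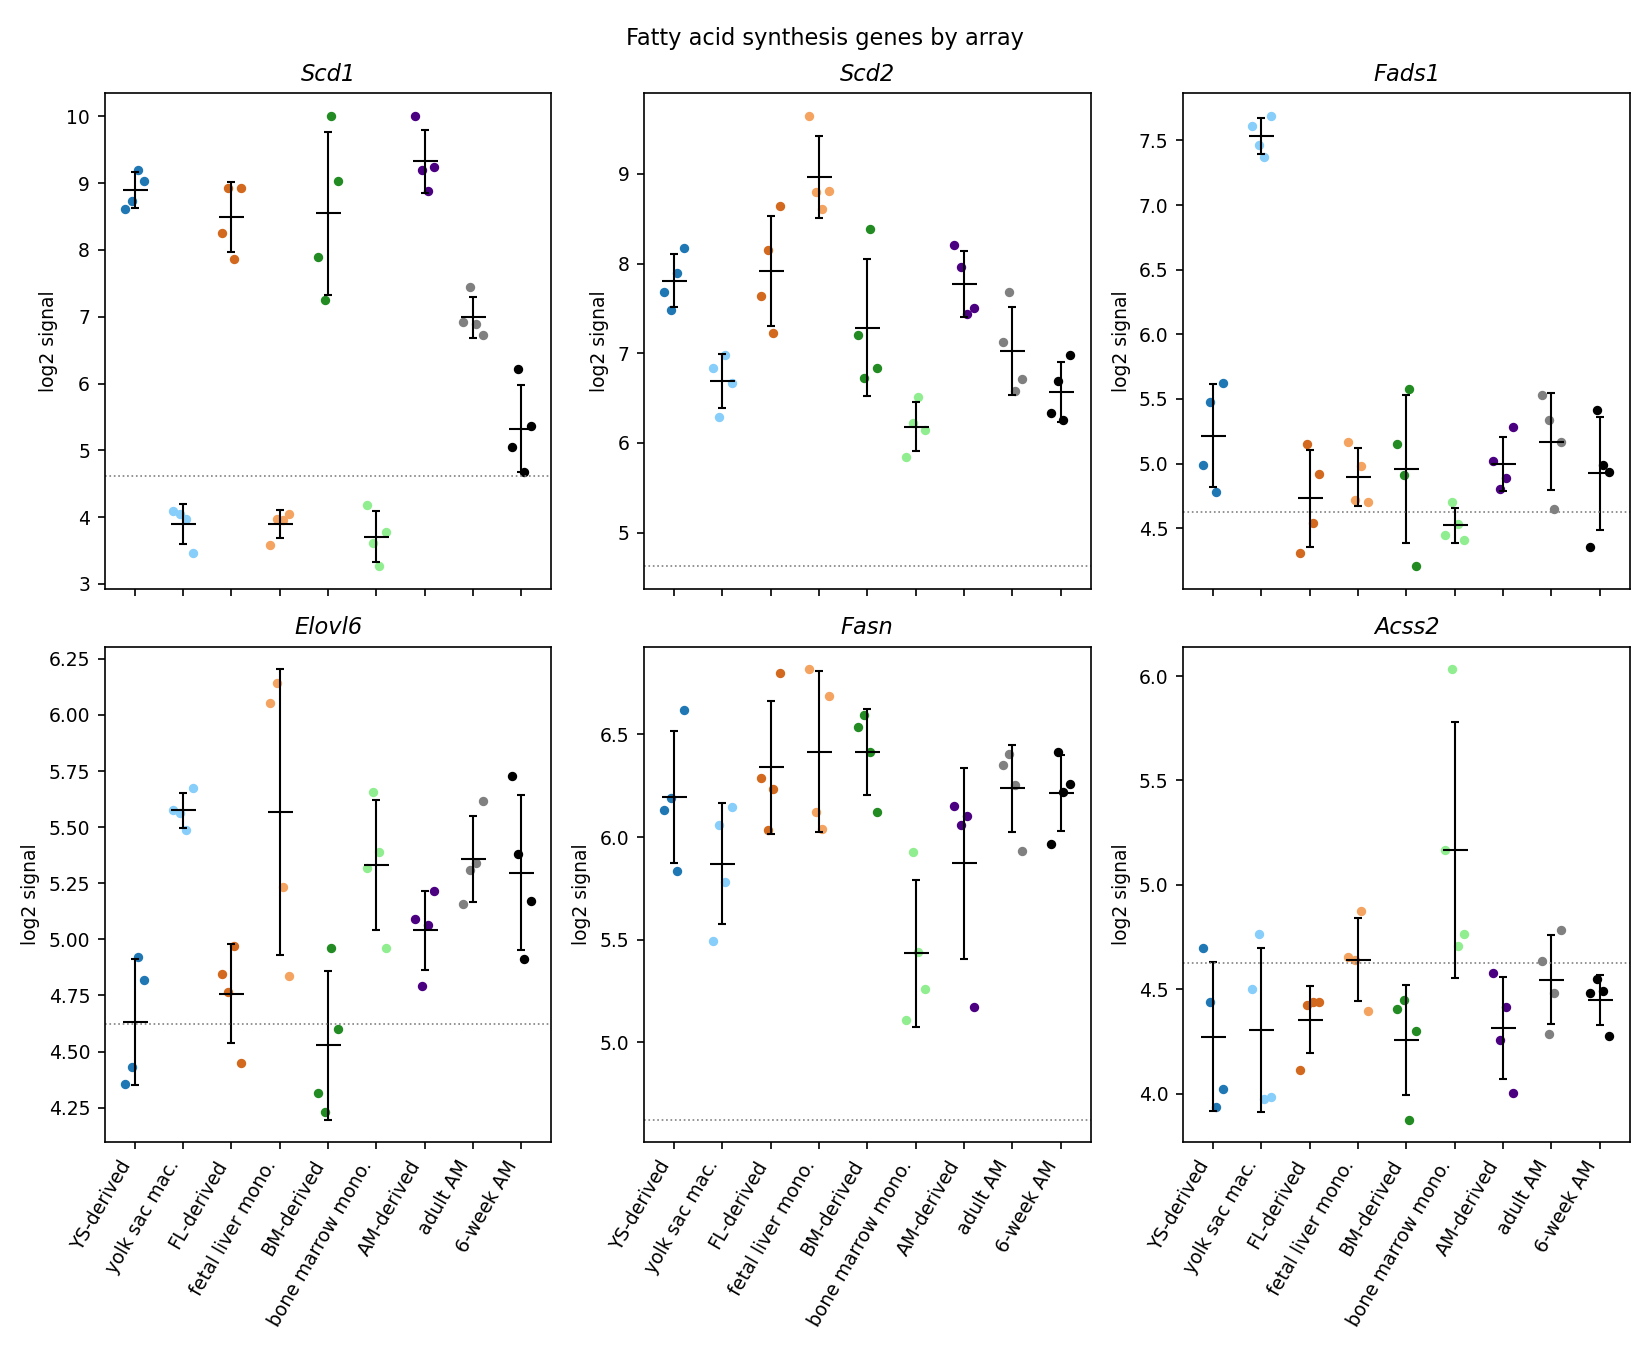
Log2 level of 6 fatty acid synthesis genes in each of the 36 arrays (points), with the mean and SD of each group (n = 4); the dotted line is the median of the table, and vertical axes start above 0. Scd1 lies above 7 in the derived groups and under the dotted line in the precursors, Scd2 is highest in fetal liver monocytes, and Fads1 stands at 7.37 to 7.69 in yolk sac macrophages.

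The comparison with alveolar macrophages that were never transferred asked how far the derived cells matched the resident cell. These comparisons share the 6-week arrays. In YS-derived against 6-week alveolar macrophages 2 of 31 genes were higher and 0 lower, beside 1.02% and 0.702% of all genes tested. In FL-derived macrophages these were 2 and 0, beside 0.604% and 0.441%, and in BM-derived macrophages 1 and 0, beside 0.825% and 0.482%. AM-derived macrophages gave 2 and 0, beside 0.760% and 0.310% of all genes. No sterol gene was among those called. Of the 17 sterol genes 0 were called in any of these comparisons by limma, and 1 (YS-derived), 2 (FL-derived), 2 (BM-derived) and 1 (AM-derived) had an unadjusted p under 0.05. The share of all genes at that unadjusted cut-off was not counted, so these counts have no background beside them. The median difference of the sterol genes was 0.05, 0.26, -0.06 and -0.17 in the same order.

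Scd1 was the gene called in each of the 4 comparisons. It was higher by 3.57 ± 0.37 in YS-derived (11.8-fold, adjusted p = 5.47e-08) and 3.17 ± 0.37 in FL-derived macrophages (8.98-fold, adjusted p = 2.52e-06). The differences were 3.22 ± 0.37 in BM-derived (9.33-fold, adjusted p = 5.76e-07) and 4.00 ± 0.37 in AM-derived macrophages (16.0-fold, adjusted p = 3.58e-08). All 16 derived arrays were above all 4 arrays of the 6-week group. Scd2 was higher by 1.24 ± 0.31 in YS-derived (2.37-fold, adjusted p = 0.0198), 1.35 ± 0.31 in FL-derived (2.55-fold, adjusted p = 0.0146) and 1.21 ± 0.31 in AM-derived macrophages (2.31-fold, adjusted p = 0.0388). In BM-derived macrophages its difference of 0.72 ± 0.31 did not pass the test. No Scd1 call was lost when any 1 array of its groups was left out, but the Scd2 calls were. Its difference did not pass in YS-derived macrophages without replicate 3 (1.21) or 4 (1.12), in FL-derived macrophages without replicate 2 (1.27) or 4 (1.10), or in AM-derived macrophages without replicate 1 (1.07), 2 (1.15) or 4 (1.30). Without replicate 1 or 3 of the 6-week group none of these 3 calls held, at 1.11 to 1.27, and in AM-derived macrophages it also did not pass without replicate 2 of that group (1.25). Elovl6 was called, as lower, in BM-derived macrophages without their replicate 3 or without replicate 3 of the 6-week group, which made 2 genes of 31.

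Markers of neutrophils were read in the same comparisons. Their summed level was 10.96 to 11.40 in YS-derived, 10.69 to 12.13 in FL-derived, 10.09 to 11.65 in BM-derived and 10.81 to 11.23 in AM-derived macrophages, against 9.58 to 10.43 in 6-week alveolar macrophages. Of 10 markers, 3 or 4 were over the median of the table in these groups, and Ly6g, Ltf, Mpo, Ngp and Prtn3 were under it in all 5. The BM-derived range overlapped that of the 6-week group. In that comparison 0 of 8 neutrophil markers tested were called, beside 0.825% of all genes higher and 0.482% lower. Their calls in the other comparisons are not given here. Among markers of lung epithelium, Cdh1 was 8.21, 8.60, 8.64 and 9.02 in YS-derived and 7.39, 7.65, 7.59 and 7.75 in 6-week alveolar macrophages. The summed epithelial level was 8.80 to 9.61 over the 4 derived groups and 8.86 to 9.21 in the 6-week group. Of the 10 epithelial markers, 5 to 7 were over the median of the table in the derived groups and 6 in the 6-week group. Their part in the result was not tested.

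AM-derived and adult alveolar macrophages are the pair in which the cell type before and after transfer was the same. One gene of 31, Scd1, was higher and 0 were lower, beside 0.400% and 0.302% of all genes tested. Scd1 was higher by 2.34 ± 0.37 (5.06-fold, adjusted p = 0.000323). The median difference of the sterol genes was -0.32, with 0 called and 7 of 17 at an unadjusted p under 0.05. Hmgcs1, for instance, differed by -0.66 ± 0.23 (95% confidence interval -1.13 to -0.20, adjusted p = 0.275). The share of all genes at that unadjusted cut-off was not counted, so the count of 7 does not set the sterol genes apart.

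Adult (6 to 12 weeks) and 6-week alveolar macrophages, neither of them transferred, differed in 0 of 31 genes by limma, beside 0.0163% of all genes tested. At an unadjusted p under 0.05 there were 2 of 31, with no share of all genes counted to set beside them. Scd1 was higher in the adult group by 1.67 ± 0.37 (3.17-fold), with no overlap of the arrays, at an adjusted p of 0.339. Without replicate 2 of the 6-week group Scd1 passed the test, as 1 gene of 31.

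**Figure D5:**
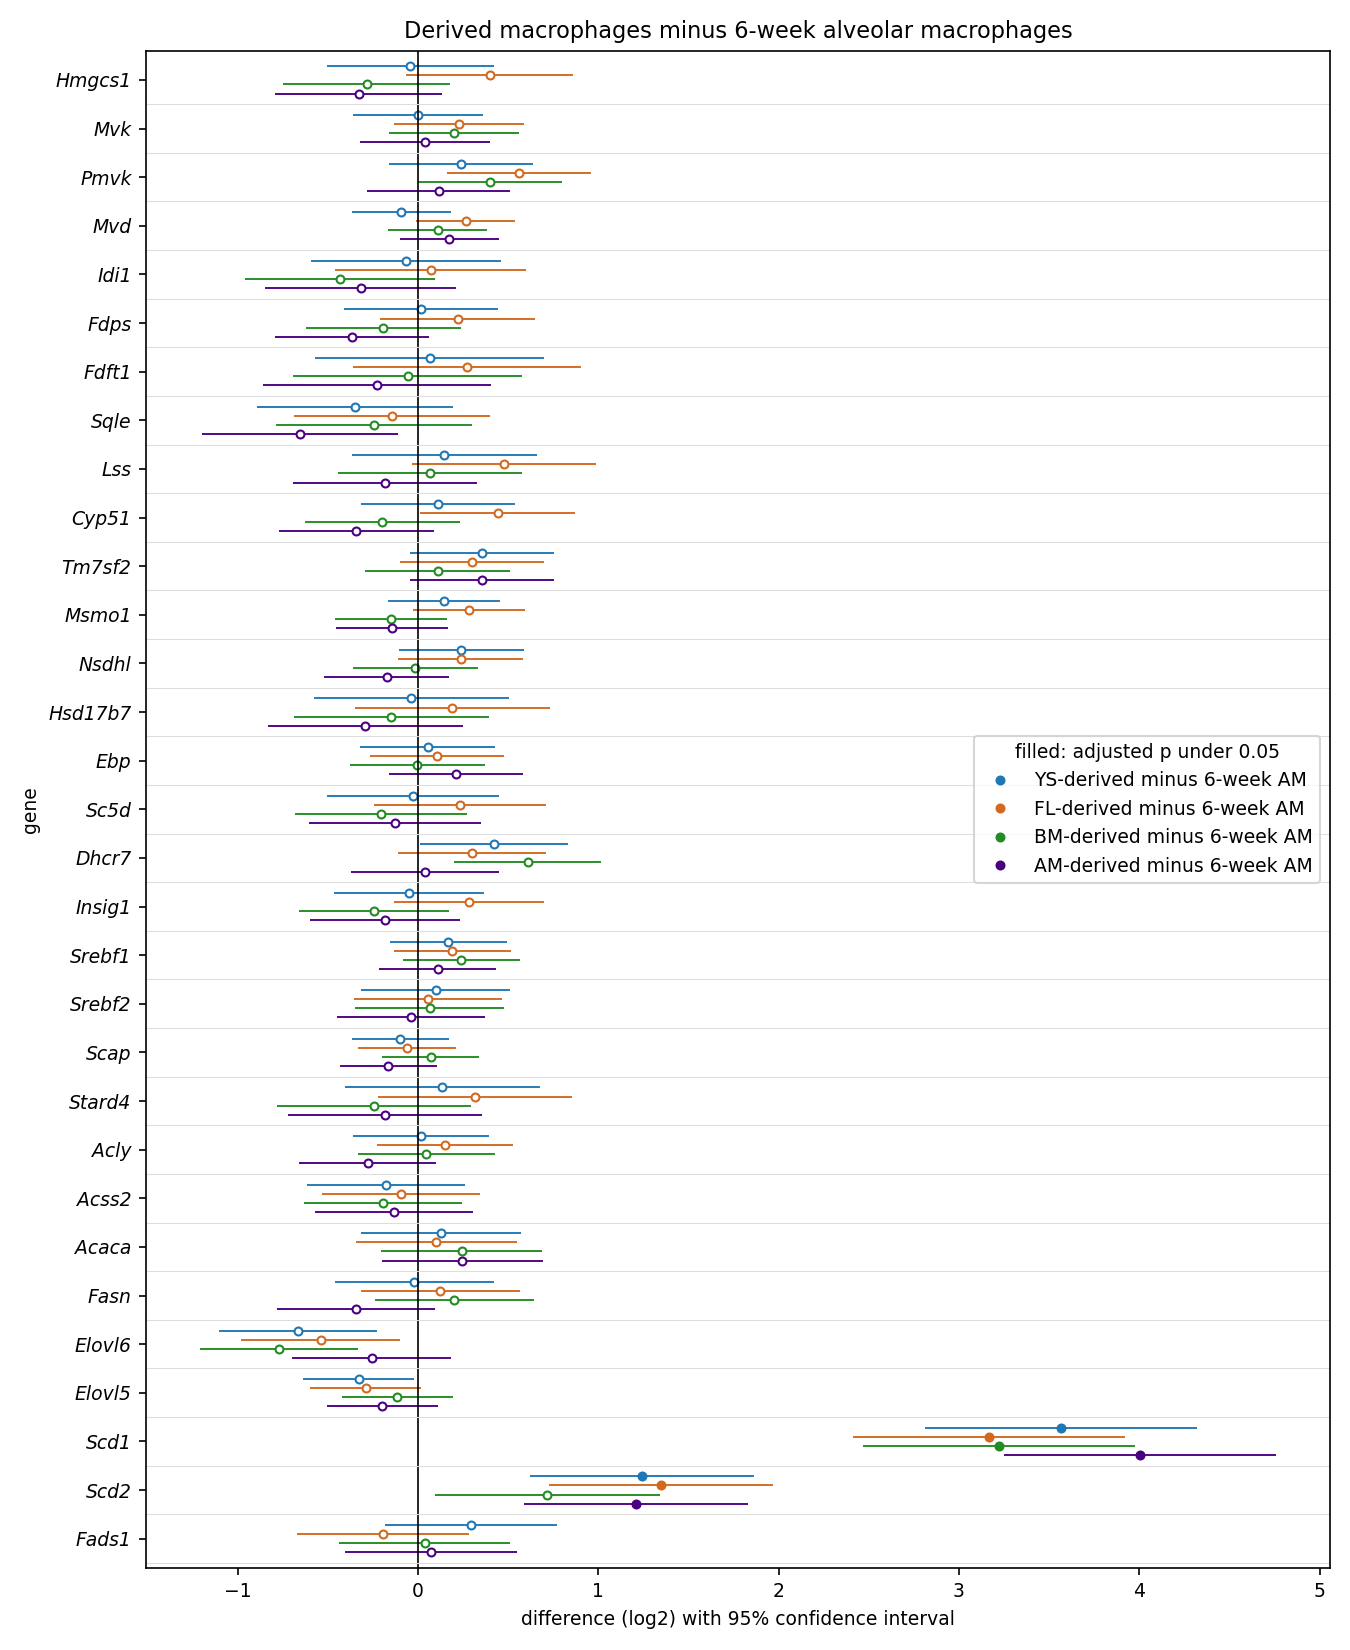
Difference (log2) with 95% confidence interval for the 31 genes tested, 4 derived groups minus 6-week alveolar macrophages; filled points passed the test. Scd1 lies between 3.17 and 4.00, Scd2 is filled in 3 of 4 groups, and the sterol genes lie on either side of 0.

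Among the derived macrophages, the origin of the cell was compared directly. In YS- against FL-derived, YS- against BM-derived and FL- against BM-derived macrophages 0 of 31 genes were called by limma, beside 0.270%, 0.833% and 0.417% of all genes tested in either direction. At an unadjusted p under 0.05 these counts were 2, 0 and 6 of 31, with no share of all genes counted at that cut-off. For Scd1 the differences had 95% confidence intervals of -0.36 to 1.15, -0.41 to 1.10 and -0.81 to 0.70 in the same order, and for Hmgcs1 -0.91 to 0.02, -0.22 to 0.70 and 0.22 to 1.15.

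The precursors themselves differed more. In yolk sac macrophages against bone marrow monocytes 3 of 31 genes were higher and 13 lower, beside 24.1% and 18.1% of all genes tested, and against fetal liver monocytes 2 were higher and 10 lower, beside 18.6% and 14.5%. With each array centred on its median, the second of these splits became 1 higher and 17 lower. With 1 array left out in turn, 11 to 14 genes were called against bone marrow monocytes, where all arrays gave 16. Against fetal liver monocytes the range was 9 to 14, where all arrays gave 12. The lowest group mean was that of yolk sac macrophages for 17 of the 31 genes, a place it had for 22.7% of all genes tested. Sterol genes made up 8 of the 13 and 5 of the 10 that were lower. They are 17 of the 31 genes tested, so these counts are near their share of the list.

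Fads1 led both comparisons. It was higher in yolk sac macrophages by 3.01 ± 0.23 than in bone marrow monocytes (at least 7.52-fold, adjusted p = 8.88e-13) and by 2.64 ± 0.23 than in fetal liver monocytes (6.23-fold, adjusted p = 2.83e-11). Against bone marrow monocytes, the differences of Elovl5 (-1.17 ± 0.15), Fdps (-1.34 ± 0.21), Sc5d (-1.48 ± 0.23) and Mvd (-0.66 ± 0.13) were the next by adjusted p, all lower, and Scap (0.58 ± 0.13) was higher. Against fetal liver monocytes, the differences of Fdps (-1.88 ± 0.21), Scd2 (-2.27 ± 0.31), Elovl5 (-1.12 ± 0.15), Sc5d (-1.24 ± 0.23) and Idi1 (-1.28 ± 0.26) followed, all lower. The erythroid, early response and endoderm markers given above for yolk sac macrophages move with these differences too.

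In fetal liver against bone marrow monocytes 3 of 31 genes were higher and 0 lower, beside 10.6% and 8.97% of all genes tested, which is at or under the background. Scd2 was higher by 2.78 ± 0.31 (6.89-fold, adjusted p = 2.08e-08), Fasn by 0.98 ± 0.22 (1.98-fold, adjusted p = 0.00097) and Tm7sf2 by 0.55 ± 0.20 (1.47-fold, adjusted p = 0.0444). The Tm7sf2 call was lost without replicate 1 (0.57) or 2 (0.40) of the bone marrow monocytes and without replicate 1 (0.57), 2 (0.47) or 3 (0.50) of the fetal liver monocytes, and 5 genes were called without replicate 3 of the bone marrow monocytes.

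The change over transfer was compared between origins as a difference of differences. Between yolk sac and bone marrow pairs, 8 of 31 genes changed upward more and 2 less, beside 12.4% and 18.2% of all genes tested. With each array centred on its median, these counts were 14 and 2. Fads1 (-2.76 ± 0.33, adjusted p = 4.13e-08), Fdps (1.55 ± 0.30, adjusted p = 0.000112), Sc5d (1.65 ± 0.33), Elovl5 (0.96 ± 0.21), Msmo1 (0.96 ± 0.22) and Scap (-0.75 ± 0.19) had the lowest adjusted p. Between yolk sac and fetal liver pairs, 5 genes changed upward more and 1 less, beside 9.48% and 13.5% of all genes. They were Fdps (1.68 ± 0.30), Elovl5 (1.08 ± 0.21), Scd2 (2.17 ± 0.43), Idi1 (1.15 ± 0.37) and Sc5d (0.98 ± 0.33), with Fads1 (-2.16 ± 0.33) in the other direction. With 1 array left out in turn, the Sc5d call was lost for 7 arrays (0.80 to 0.95) and the Idi1 call for 3 (0.95 to 1.01).

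Between fetal liver and bone marrow pairs, 4 genes changed upward more and 2 less, beside 4.26% and 5.68% of all genes tested. Scd2 (-2.15 ± 0.43, adjusted p = 0.000887) and Fasn (-1.06 ± 0.31, adjusted p = 0.0215) changed upward less, and Cyp51 (1.15 ± 0.30, adjusted p = 0.00984), Msmo1 (0.75 ± 0.22, adjusted p = 0.0212), Insig1 (0.99 ± 0.29, adjusted p = 0.0232) and Hmgcs1 (1.00 ± 0.32, adjusted p = 0.0425) more. Without replicate 4 of the FL-derived group 3 genes were called, and the differences of Msmo1, Insig1 and Hmgcs1 became 0.57, 0.71 and 0.66 and did not pass. Without replicate 2 of the bone marrow monocytes 3 genes were again called, and the same differences, 0.64, 0.81 and 0.82, did not pass. Without replicate 1 of the fetal liver monocytes, Msmo1 (0.63), Fasn (-0.93) and Hmgcs1 (1.00) did not pass. Hmgcs1 was the least steady of the 6, with its call lost for 9 of the 16 arrays left out in turn.

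Other genes of these pathways were read from lists drawn up with earlier results known. The list of liver X receptor targets held 7 genes tested, among them Nr1h3, which encodes such a receptor itself. Of these, 5 rose and 2 fell in the yolk sac pair, and 6 rose and 1 fell in both other pairs. Those that fell are not named here. Over all genes tested 19.6% rose and 23.2% fell in the yolk sac pair, 20.4% and 18.0% in the fetal liver pair, and 20.3% and 16.1% in the bone marrow pair. Abcg1, which exports cholesterol to lipoproteins, rose by 4.45 ± 0.16 in the yolk sac pair and 3.77 ± 0.16 in the bone marrow pair. Pltp, a phospholipid transfer protein, rose by 4.22 ± 0.16 in the fetal liver pair. Of 5 genes of sterol storage and release, 4 rose and 0 fell in the yolk sac pair, 3 and 0 in the fetal liver pair, and 3 and 2 in the bone marrow pair. Nceh1, which frees cholesterol from its esters, rose by 3.61 ± 0.12, 2.58 ± 0.12 and 2.80 ± 0.12 in the yolk sac, fetal liver and bone marrow pairs.

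Of 13 further genes of sterol synthesis and its control, 2 rose and 5 fell in the yolk sac pair, 4 rose and 2 fell in the fetal liver pair, and 5 rose and 4 fell in the bone marrow pair. Of 15 further fatty acid genes, 5 rose and 2 fell, 3 rose and 3 fell, and 6 rose and 1 fell in the same pairs. Of the further sterol genes 15.4% rose and 38.5% fell in the yolk sac pair, so that fewer rose than the background of 19.6%, and 30.8% rose and 15.4% fell in the fetal liver pair. Of the further fatty acid genes 20.0% rose and 20.0% fell in the fetal liver pair, near the background. Ch25h, which makes the oxysterol 25-hydroxycholesterol, was among the genes that rose. Ch25h was at 9.74, 9.97, 9.63 and 9.82 in YS-derived macrophages, against 4.50, 4.95, 3.61 and 3.97 in yolk sac macrophages, all of the second group except 1 array under the median of the table. Ch25h met the filter through the alveolar groups, with 1 of 12 precursor arrays over the median, which already implied a difference. Its folds were at least 35.9-fold, at least 35.8-fold and at least 34.4-fold in the yolk sac, fetal liver and bone marrow pairs.

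Ch25h and the cholesterol exporter Abca1 were also called against untransferred alveolar macrophages. AM-derived macrophages carried Ch25h at 9.77, 9.57, 9.85 and 9.19, against 8.43, 8.31, 8.28 and 8.22 in adult and 8.46, 8.90, 7.77 and 8.58 in 6-week alveolar macrophages, and the AM-derived arrays overlapped neither of the other groups. Ch25h was higher than in the 6-week group by 1.36 ± 0.24 in YS-derived, 1.36 ± 0.24 in FL-derived, 1.30 ± 0.24 in BM-derived and 1.17 ± 0.24 in AM-derived macrophages. The 4 derived groups thus lay close together. Abca1 was at 7.76, 7.61, 7.58 and 7.71 in AM-derived, 6.90, 7.13, 7.09 and 6.31 in adult and 6.50, 6.75, 6.37 and 6.94 in 6-week alveolar macrophages. It was higher in AM-derived macrophages by 0.81 ± 0.19 than in the adult group (adjusted p = 0.0322) and by 1.03 ± 0.19 than in the 6-week group (adjusted p = 0.00231), and in YS-derived macrophages by 0.72 ± 0.19 than in the 6-week group (adjusted p = 0.0473). Elovl7, an elongase, was higher than in the 6-week group in YS-derived (1.50 ± 0.30) and BM-derived (1.18 ± 0.30) macrophages, with the 6-week mean under the median of the table. Apoe, which carries cholesterol out of macrophages, was higher in FL- than in BM-derived macrophages by 1.54 ± 0.30 (adjusted p = 0.00665), with replicate 4 of the FL-derived group highest at 9.12.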

How the data were processed

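Sorted mouse cells were profiled on Affymetrix Mouse Gene 1.0 ST arrays after RNA amplification, per the labels' protocols. The authors deposited log2 values for 35556 probe sets on 36 arrays, made with RMA per the submitters' processing notes. The version of RMA and any array batches were not stated. RMA sets the arrays to one distribution, so that levels are relative to each array. Of the probe sets, 21789 carried 1 gene symbol, 1621 several and 12146 none, and probe sets with several or none were left out. The 33 genes and all lists were chosen with earlier results of these data known.

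One linear model over the 9 groups was fitted with limma 3.58.1 in R 4.3.3 to the 12244 genes over the median of the table (4.62) in at least 4 arrays, with moderated tests and Benjamini-Hochberg adjustment. It was tested on simulated data. Genes named in full were up to 6 called ones per comparison with the lowest adjusted p, 16 genes set by name with values in every array, and, of other pathway lists, counts with up to 3 called genes. No columns were identical. The labels number replicates 1 to 4 in each group, but in no comparison did all 4 same-numbered pairs deviate together at a correlation above 0.1 (range -0.23 to 0.42), so the main model held no block. Alternatives were a replicate block, a fit to the compared groups alone, other filters, centring, quantile normalisation, array weights, an intensity trend, the mean over probe sets, and leaving out each array. Promoter sequences and starts came from RefSeq, build GRCm38.p6.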

Additional observations from a re-analysis of the deposited data

Results flagged for a closer look

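In some groups of 4 arrays 1 array stood far from the others. Such flags came up in 10 of 171 groups tested over these genes, where chance gives about 5%, or 1 in 20. Replicate 4 of the FL-derived group was the highest for Hmgcs1 (9.88) and Insig1 (9.88). Replicate 4 of the AM-derived group was the lowest for Dhcr7 (6.68) and Fasn (5.17), and replicate 1 of that group for Fads2 (3.77). Among bone marrow monocytes, replicate 2 was the highest for Msmo1 (8.27) and Dhcr7 (6.76), and replicate 1 the lowest for Srebf1 (6.00). In the other groups, replicate 3 of the yolk sac macrophages was the lowest for Cyp51 (5.92), and replicate 4 of the adult alveolar macrophages the lowest for Fads2 (3.94).

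The change over transfer differed between origins for 22 gene and pair combinations, by limma's test of the difference of log2 differences. Between the fetal liver and bone marrow pairs these were Scd2 (-2.15), Fasn (-1.06), Msmo1 (0.75), Insig1 (0.99), Hmgcs1 (1.00) and Cyp51 (1.15). Between the yolk sac and bone marrow pairs they were Fads1 (-2.76), Scap (-0.75), Cyp51 (0.84), Acss2 (0.88), Idi1 (0.95), Elovl5 (0.96), Msmo1 (0.96), Insig1 (0.96), Fdps (1.55) and Sc5d (1.65). Between the yolk sac and fetal liver pairs they were Fads1 (-2.16), Sc5d (0.98), Elovl5 (1.08), Idi1 (1.15), Fdps (1.68) and Scd2 (2.17). The 3 sets share arrays with each other.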

How the results depend on the processing

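The count of genes called was within 1.5 times the reported one in 155 of 162 settings other than leaving out an array, and no single gene reversed. Of 531 single differences under these settings, 516 kept their call, and of 616 with an array left out, 569 did. With a replicate block, the count of genes called was 1 in AM-derived against 6-week alveolar macrophages (Scd2 at an adjusted p of 0.0607), against 2 without it, and 25, 19 and 18 in the yolk sac, fetal liver and bone marrow pairs; Tm7sf2 in fetal liver against bone marrow monocytes also lost its call (0.0519). With no filter on low values, AM-derived against 6-week alveolar macrophages gave 1 gene. When only the groups compared were fitted, 1 gene was called in FL-derived against 6-week alveolar macrophages, 5 in fetal liver against bone marrow monocytes, and 3 between the fetal liver and bone marrow changes. With arrays centred on their median, 2 genes were called in BM-derived against 6-week alveolar macrophages (Scd1 higher, Elovl6 lower) and 16 between the yolk sac and bone marrow changes, against 10. Centring moved the median of all genes by 0.08, -0.11 and -0.15 in the yolk sac, fetal liver and bone marrow pairs, with the genes' medians then 0.98, 0.51 and 0.42, and by 0.20 between the yolk sac and bone marrow changes. With an array left out in turn, calls ranged over 16 to 19 in the fetal liver pair, 17 to 20 in the bone marrow pair and 25 in the yolk sac pair, 2 to 5 in fetal liver against bone marrow monocytes, 3 to 6 between the fetal liver and bone marrow changes, 0 to 1 in adult against 6-week alveolar macrophages, and 1 to 2 in each derived group against the 6-week group. For yolk sac macrophages these ranges were 11 to 14 against bone marrow monocytes, under the 16 of all arrays, and 9 to 14 against fetal liver monocytes. Between the yolk sac and bone marrow changes the range was 7 to 12, and between the yolk sac and fetal liver changes 4 to 7. The number of arrays, and levels near the median of the table for Lss, Acss2, Fads2 and, in precursors, Scd1, limit what these data can show.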
